A study of Mus musculus with 6 samples.

Results

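The 38 genes described here are loci subject to genomic imprinting, the silencing of one parental copy of a gene. They were taken by symbol from a list led by H19 and Igf2, chosen with earlier results of these data known. All 38 had a row among the 54532 genes of the deposited count table. Reads from the maternal and paternal copies are summed in each row, so the counts do not show which copy they came from. By what is known of them, 16 members are expressed from the maternal copy in at least some tissues (H19, Igf2r, Meg3, Rian, Mirg, Zim1, Ppp1r9a, Asb4, Phlda2, Ube3a, Trappc9, Blcap, Copg2, Commd1, Cd81 and Tssc4) and 20 from the paternal copy. These classes were not checked in this cord, where a member may be expressed from both copies. For the remaining 2, Grb10 and Gnas, the expressed copy depends on the promoter or tissue, and they were kept in neither class.

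The samples are injured spinal cords of C57BL/6J mice, 3 libraries with and 3 without rotarod training, in which a mouse walks on a turning rod. All 6 are labelled day 28 after training, and all carry the injury, so no uninjured cord is compared here. Age, sex and the level and kind of injury are not in the labels. Nor is it said whether a library is 1 mouse, so the p-values reflect only how these samples vary, and part of that spread may be technical.

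Imprinted genes lie in clusters whose parental expression is set by control regions methylated in the egg or the sperm. Many of them act on fetal growth, and several paternally expressed ones are abundant in neurons throughout life. The Igf2 gene encodes insulin-like growth factor 2, a growth signal of embryonic and mesenchymal tissue, and its neighbour H19 makes a noncoding RNA from the other parental copy under the same control region.

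Total counts ran from 15814104 to 26092014 per library, so 3 counts, taken as the limit of detection, equal 0.115 to 0.190 CPM (read counts scaled to library size, here with TMM factors that even out library composition). Neuron, oligodendrocyte and Hox position markers of cord were above 3 counts in every library. One library stood apart. Trained replicate 1 had 130 CPM summed over 5 Schwann cell genes, against 722 to 1275 CPM in the other libraries, and 173 CPM over 11 meningeal and perivascular fibroblast genes, against 411 to 760 CPM. In bulk cord, fewer cells of a type and less RNA per cell cannot be told apart.

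Most imprinted genes differed little between trained and untrained cord, relative to the spread between libraries. Of the 36 members tested with edgeR, 0 passed a Benjamini-Hochberg adjusted p of 0.05. Of all 16909 genes tested 0.0591% did (10 genes), 0.00591% higher and 0.0532% lower in trained cord. At an unadjusted p below 0.05, 4 members were higher in trained cord (H19, Nnat, Ndn and Magel2) and 0 lower, 11.1% of the 36 against 10.0% of all genes. By direction, the share of all genes was 4.47% higher and 5.55% lower. DESeq2 called 1 member (Nnat), with 92 of all 30350 genes it tested, and limma-voom 0, with 9 of 16909. Without trained replicate 1 edgeR called 1 member (H19) and 21 of 17227 genes in all. Without trained replicate 3 it called 2 members (Ndn and Nnat) and 221 of 17181 genes. With no filter on low counts it called Ndn and Nnat too, with 276 of 30362 genes.

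Groups did not overlap in 3 of the 36 members, all with the trained libraries above: Nnat, Ndn and Magel2. Over all genes tested 16.8% did so, 8.13% with the trained libraries above and 8.69% below. The other 2 members, Phlda2 and Slc38a4, were too low to test, with at most 2 and 9 counts in any library. Among the 36 the median log2 fold change (trained over untrained) was 0.018, against -0.0080 for all genes. It was above 0 in 21 of the 36, where 48.0% of all genes were, and 30 lay within 0.2 of 0. For 29 the approximate 95% interval of the difference stayed within 1.5-fold in both directions, and for 34 within 2-fold. Only H19 and Igf2 had wider ones.

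**Figure D1:**
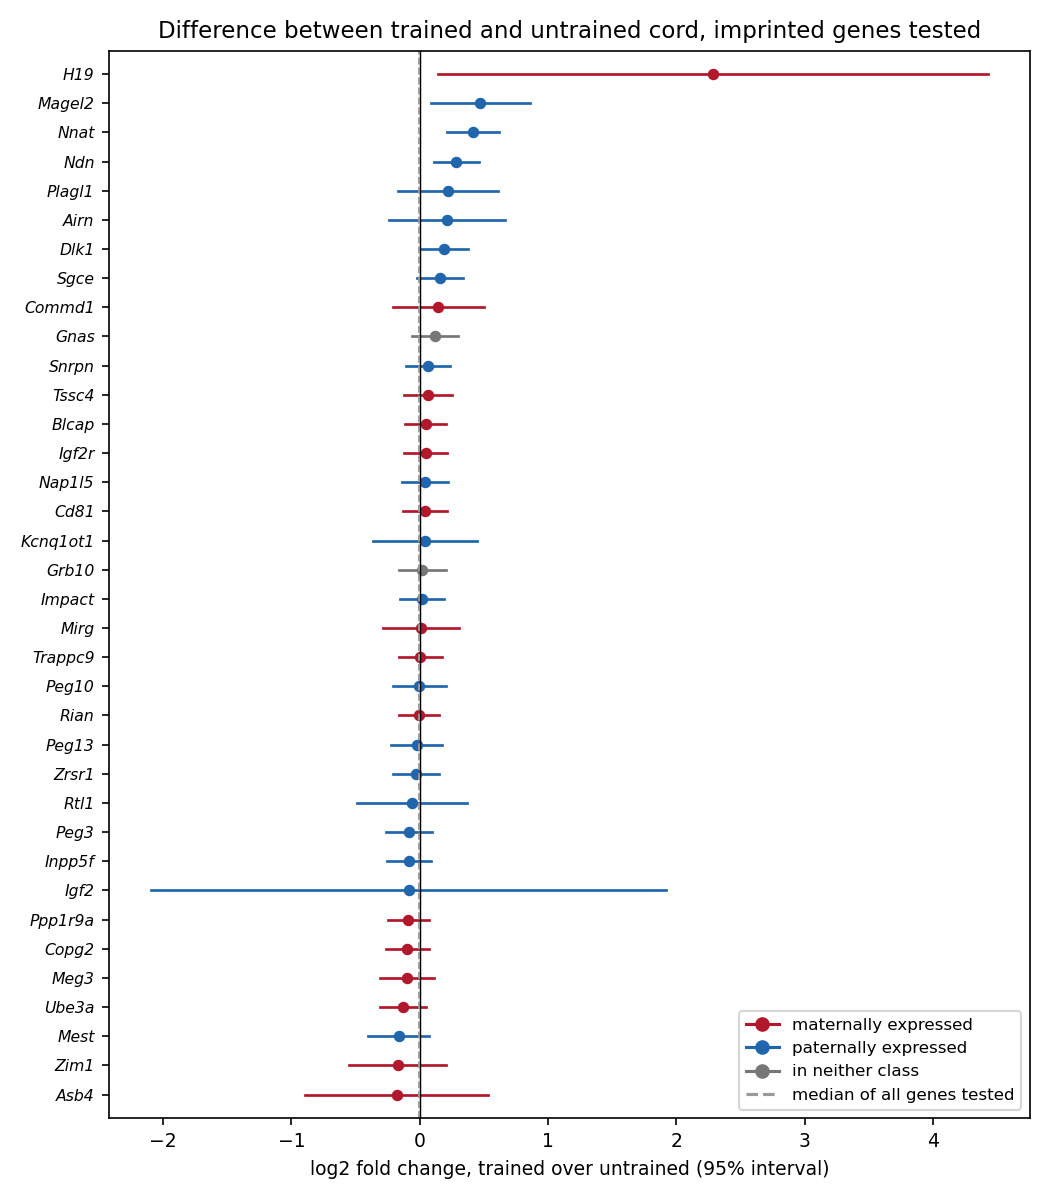
Log2 fold change of the 36 imprinted genes tested, trained over untrained cord, with its 95% interval from the edgeR fit (n = 3 libraries per group). Colours give the parental class of each gene, and the dashed line is the median of all genes tested at -0.0080. H19 lies apart at 2.29 with an interval from 0.14 to 4.43, and most other members lie close to 0.

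Counts and medians are given for the parental classes apart. Of 15 maternally expressed members tested, 8 had positive and 7 negative log2 fold changes, with a median of 0.0034. Of 19 paternally expressed members tested, 11 were positive and 8 negative, with a median of 0.040. At an unadjusted p below 0.05 were 1 maternally expressed gene (H19, 6.67% of the 15) and 3 paternally expressed ones (Nnat, Ndn and Magel2, 15.8% of the 19), against 10.0% of all genes. All of these were higher in trained cord, and 4.47% of all genes were higher at that threshold. Groups did not overlap in 0 maternally and 3 paternally expressed members (15.8%), against 16.8% of all genes. In all 3 the trained libraries lay above, as in 8.13% of all genes. Without trained replicate 3 the medians were 0.0010 and 0.12. The difference between the classes was not tested. Grb10, an adaptor that restrains insulin and growth factor receptors, was at a log2 fold change of 0.021, and Gnas, which encodes the stimulatory G protein alpha subunit and other products, at 0.12.

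H19 (ENSMUSG00000000031) is a lincRNA gene on the minus strand of chromosome 7, at bases 142575529 to 142578143 of GRCm38. Its transcript is also the precursor of miR-675, a microRNA cut from within an exon. The mature sequences from RefSeq (GRCm38.p6) show what this transcript can give rise to, with the seed, bases 2 to 8 that pair with targets, in capitals.
mmu-miR-675-5p: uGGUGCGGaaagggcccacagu
mmu-miR-675-3p: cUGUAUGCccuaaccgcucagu
The seeds of the arms differ. The row of the hairpin itself held 0 counts in all 6 libraries, and mature microRNAs were not measured.

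Trained replicates 1, 2 and 3 held 2.21, 14.0 and 12.1 CPM of H19, and untrained replicates 1, 2 and 3 held 2.46, 1.68 and 1.53 CPM. Trained replicates 2 and 3 were high, and trained replicate 1 lay inside the untrained range, so the groups overlapped. The means were 9.44 ± 6.34 and 1.89 ± 0.496 CPM (SD, n = 3 per group). In edgeR the log2 fold change was 2.29 ± 0.81 (SE, unadjusted p = 0.0409, adjusted p = 0.480), a 4.88-fold difference with an interval from 1.11 to 21.5. Without trained replicate 1 it was 2.77, with an edgeR adjusted p of 0.000102. Leaving out each of the other 5 libraries gave an unadjusted edgeR p from 0.0776 to 0.119, limma-voom gave 0.267 and edgeR with no filter on low counts 0.0560, all above 0.05. DESeq2 gave an unadjusted p of 0.00235 and an adjusted p of 0.175. H19 shares 225 of its exon bases (9.15%) with short genes, among them the miR-675 hairpin, and reads there may have been counted for neither.

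Red blood cell genes moved with H19 across the libraries. Over 6 such genes, all above 3 counts in every library, trained replicates 1, 2 and 3 summed to 62.5, 149 and 148 CPM, and untrained replicates 1, 2 and 3 to 69.9, 66.4 and 38.3 CPM. The 2 libraries high in H19 were the 2 highest in this list, with Hba-a1, an alpha-globin gene, at 62.6 and 70.8 CPM there and at most 28.0 CPM elsewhere. Skeletal muscle genes, of which 9 of 10 passed 3 counts in some library, ran from 8.94 to 10.9 CPM in the trained libraries and from 2.49 to 9.72 CPM in the others, with trained replicate 1 the highest. The part of either in the H19 values was not tested.

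Igf2 (ENSMUSG00000048583), on the same strand of chromosome 7 at bases 142650766 to 142666816, was low, at 8 to 45 counts per library. Trained replicates 1, 2 and 3 held 0.310, 1.98 and 1.37 CPM, and untrained replicates 1, 2 and 3 held 2.46, 0.481 and 0.703 CPM. The libraries of both groups were spread over the whole range, with means of 1.22 ± 0.843 and 1.21 ± 1.08 CPM (SD, n = 3 per group). Its log2 fold change was -0.087 ± 0.83 (SE) with an interval from -2.09 to 1.92, so a 3.78-fold difference upward lay inside the interval. Without trained replicate 1 the value was 0.43, and without untrained replicate 1 it was 0.98. In Igf2, 64.5% of the exon bases are shared with other genes, nearly all with the overlapping gene Gm49394, which held 0 counts in every library. The level of Igf2 may therefore be understated.

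The fibroblast list moved with Igf2. It summed to 173, 713 and 760 CPM over trained replicates 1, 2 and 3 and to 688, 428 and 411 CPM over untrained replicates 1, 2 and 3, with all 11 genes above 3 counts in every library. The 3 libraries highest in Igf2 (untrained replicate 1 and trained replicates 2 and 3) were the 3 highest in the fibroblast list, and trained replicate 1 was the lowest in both. The same 3 libraries were also the 3 highest in H19, though untrained replicate 1, at 2.46 CPM of H19, lay close to trained replicate 1 at 2.21 CPM. The part of the fibroblast list in the Igf2 and H19 values was not tested.

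**Figure D2:**
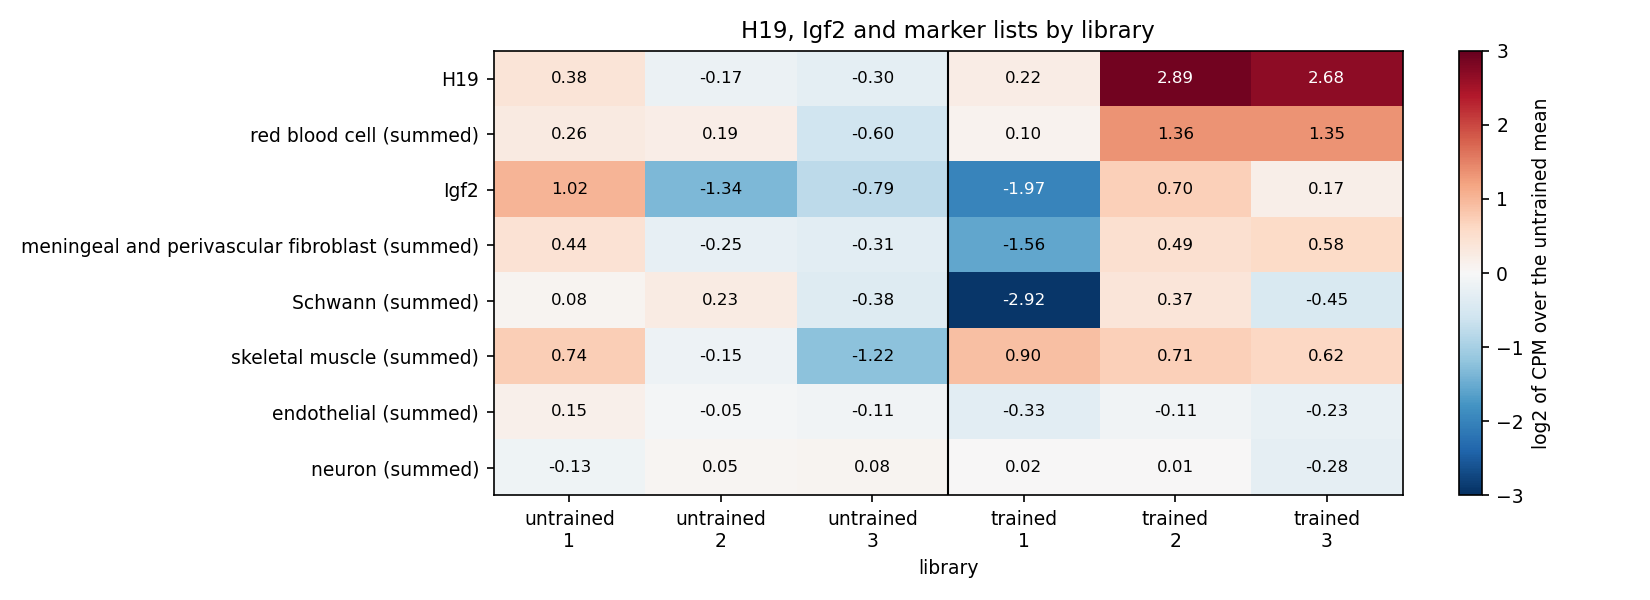
CPM of H19 and Igf2 and the summed CPM of 6 marker lists in each library, as log2 of the value over the mean of the 3 untrained libraries (colour and printed number). H19 and the red blood cell list are highest in trained replicates 2 and 3 (2.89 and 2.68 for H19, 1.36 and 1.35 for the list), while Igf2 and the fibroblast list are lowest in trained replicate 1 (-1.97 and -1.56).

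In the Prader-Willi and Angelman domain of chromosome 7, the paternally expressed genes Ndn and Magel2 had the higher values in trained cord. Ndn encodes necdin, a MAGE-family protein of postmitotic neurons, and was at 252, 264 and 218 CPM in trained and 193, 204 and 206 CPM in untrained replicates 1, 2 and 3. Every trained library lay above every untrained one, by the narrowest margin in trained replicate 3. The means were 245 ± 23.8 and 201 ± 7.06 CPM (SD, n = 3 per group), and edgeR gave a log2 fold change of 0.28 ± 0.08 (SE, unadjusted p = 0.00402, adjusted p = 0.281). Without trained replicate 3 it was 0.38, with an edgeR adjusted p of 0.0127.

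Magel2, a MAGE-family regulator of ubiquitin ligases in endosomal sorting, was at 7.74, 7.23 and 7.20 CPM in trained and 5.74, 6.01 and 4.22 CPM in untrained replicates 1, 2 and 3. These groups did not overlap either. Its log2 fold change was 0.47 ± 0.18 (SE, unadjusted p = 0.0204 and adjusted p = 0.406 in edgeR). The unadjusted edgeR p was 0.0962 without untrained replicate 3, where the value was 0.33, and 0.0622 without trained replicate 1. No exon base of Ndn or Magel2 is shared with another gene of the table.

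The other members of that domain did not stand out. Snrpn, which encodes a splicing factor subunit and begins at the domain's control region, had means of 326 ± 29.1 and 312 ± 9.27 CPM in trained and untrained cord (SD, n = 3 per group). A share of 34.1% of its exon bases lies in other genes, among them Snurf. Ube3a, the ubiquitin ligase gene silenced on the paternal copy in neurons by an antisense RNA, was at 74.9 ± 7.22 and 82.1 ± 4.72 CPM, with a log2 fold change of -0.13 ± 0.08 (SE). In Ube3a 27.3% of exon bases are shared with genes of the opposite strand, Snhg14 among them, so reads of the gene and of its antisense RNA may not be separated.

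Nnat, which encodes neuronatin, a small membrane proteolipid of the endoplasmic reticulum in developing and adult neurons, had the smallest p of the 36 members. It was at 175, 167 and 210 CPM in trained and 151, 135 and 129 CPM in untrained replicates 1, 2 and 3. All trained libraries were higher than all untrained ones, with trained replicate 3 the highest. The means were 184 ± 22.7 and 138 ± 11.4 CPM (SD, n = 3 per group), and the log2 fold change was 0.41 ± 0.09 (SE, unadjusted p = 0.000743, adjusted p = 0.209 in edgeR). DESeq2 called the gene with an adjusted p of 0.00858, and so did edgeR without trained replicate 3 (adjusted p = 0.0480) or with no filter on low counts (0.000111). It lies inside an intron of Blcap, a maternally expressed host gene on the other strand, and shares only 87 of its exon bases, with a small RNA gene. Blcap itself was at 99.9, 102 and 88.7 CPM in trained and 95.8, 89.5 and 96.5 CPM in untrained replicates 1, 2 and 3, with overlapping groups.

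**Figure D3:**
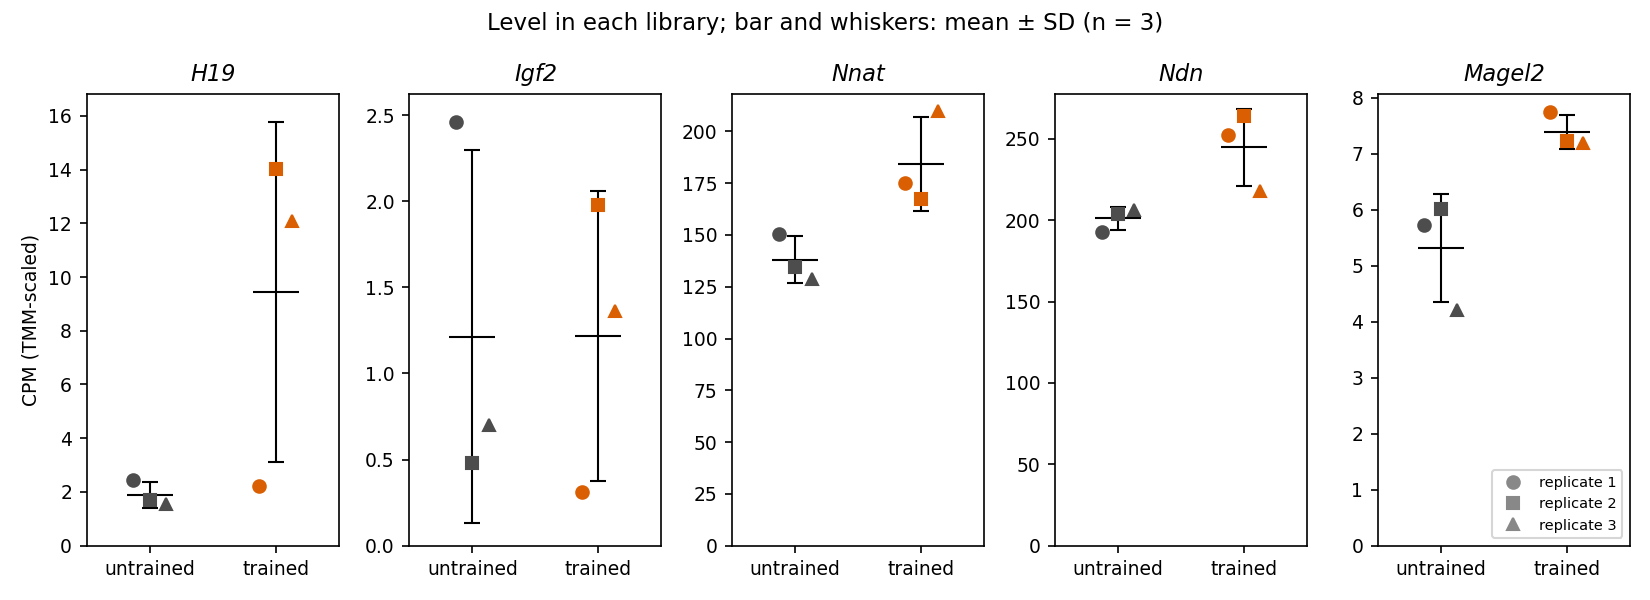
CPM of 5 imprinted genes in each library (symbols give the replicate, horizontal bars the mean and whiskers the SD of 3 libraries, and each axis starts at 0). In Nnat, Ndn and Magel2 all trained libraries lie above all untrained ones, while in H19 only trained replicates 2 and 3 do and in Igf2 the groups overlap.

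The sum of 8 neuron genes was at 7410, 7362 and 6049 CPM in trained and 6684, 7569 and 7717 CPM in untrained replicates 1, 2 and 3. Its groups overlapped, and trained replicate 3, the highest in Nnat, was the lowest in the neuron list. Ndn had its lowest trained value, 218 CPM, in that same library. Magel2 was nearly equal in trained replicates 2 and 3, at 7.23 and 7.20 CPM. The part of the neuron list in the values of these genes was not tested.

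Sequence before the start of Nnat and Magel2 is given because imprints are carried as methylation of the cytosine in CG pairs. Both had non-overlapping groups, as did Ndn, whose sequence is not printed. The 250 bases before each RefSeq start (GRCm38.p6, plus strand) are printed 5′ to 3′ with CG pairs in capitals, for Nnat at chr2:157559828-157560077 and for Magel2 at chr7:62376729-62376978.
Nnat: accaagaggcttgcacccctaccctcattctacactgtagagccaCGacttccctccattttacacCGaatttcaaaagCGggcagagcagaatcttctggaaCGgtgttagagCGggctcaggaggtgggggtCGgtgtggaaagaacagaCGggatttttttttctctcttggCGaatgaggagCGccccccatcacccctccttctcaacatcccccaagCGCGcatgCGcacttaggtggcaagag
Magel2: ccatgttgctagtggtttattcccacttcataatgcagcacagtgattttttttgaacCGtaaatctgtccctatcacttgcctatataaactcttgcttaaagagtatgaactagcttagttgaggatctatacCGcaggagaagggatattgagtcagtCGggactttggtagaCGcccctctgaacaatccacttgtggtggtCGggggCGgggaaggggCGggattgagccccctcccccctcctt
The stretch of Nnat holds 12 CG pairs and that of Magel2 7. In the full 300-base windows, which run 50 bases past the start, the numbers were 17 and 10, against a median of 7 over all 32851 windows of the same length. The letters TGCCGC, read on both strands, are those that the imprint-keeping zinc finger protein ZFP57 binds when methylated. They occurred in the 300-base window of Nnat, though not within the 250 bases printed, and not in the windows of Magel2 or Ndn. Of 49 windows of 31 members 12 held them (24.5%), against 11.6% of all windows. The motif contains a CG pair, and the members' windows held a median of 13 CG pairs, more than the 10 of Magel2. These are descriptions of sequence, and methylation was not measured.

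The Dlk1 and Meg3 domain of chromosome 12 pairs paternally expressed protein genes with a long run of maternally expressed noncoding RNAs. Dlk1, a Notch-like ligand that restrains differentiation, was at 79.0, 71.8 and 66.7 CPM in trained and 66.5, 56.8 and 67.9 CPM in untrained replicates 1, 2 and 3. The groups overlapped, with a log2 fold change of 0.19 ± 0.09 (SE, edgeR adjusted p = 0.509). Rtl1, a gene derived from a retrotransposon, was at 4.14, 3.52 and 4.03 CPM in trained and 3.93, 4.33 and 3.96 CPM in untrained replicates 1, 2 and 3.

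Meg3, the first noncoding RNA of the maternal run, was at 598, 577 and 740 CPM in trained and 722, 672 and 654 CPM in untrained replicates 1, 2 and 3. Trained replicates 1 and 2 lay below all untrained libraries and trained replicate 3 above them. Its log2 fold change was -0.098 ± 0.098 (SE), and without trained replicate 3 it was -0.20. Rian, the host of small nucleolar RNAs, was at 329, 350 and 315 CPM in trained and 335, 325 and 338 CPM in untrained replicates 1, 2 and 3. Mirg, the host of a microRNA cluster, was at 9.99, 12.3 and 12.2 CPM in trained and 11.3, 12.1 and 10.6 CPM in untrained replicates 1, 2 and 3. For both the groups overlapped, with log2 fold changes of -0.0048 ± 0.072 and 0.012 ± 0.14 (SE).

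The span of Mirg holds 14 microRNA hairpins of the RefSeq table and that of Rian 3, all on the strand of the host. The span of Rtl1 holds 7, of which 6 lie on the opposite strand. Within Meg3 lie mature sequences of miR-770 and miR-1906, on its strand. Among the 54 mature sequences inside members 1 pair shared a seed, and it is shown because both lie in Mirg.
mmu-miR-453: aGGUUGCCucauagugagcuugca
mmu-miR-496a-5p: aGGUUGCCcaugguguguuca

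Several members lie inside or across another imprinted gene that is expressed from the other parental copy, among them Nnat within Blcap, described above. In the pairs that follow, 0 members passed the adjusted threshold in edgeR, DESeq2 or limma-voom. Zrsr1, a splicing-factor retrogene within the span of Commd1, was at 80.4, 70.8 and 67.9 CPM in trained and 69.7, 78.8 and 75.7 CPM in untrained replicates 1, 2 and 3. Commd1, a regulator of copper and endosomal transport, was at 11.4, 9.14 and 10.1 CPM and at 8.08, 11.2 and 8.50 CPM. The groups overlapped in both genes, which share 412 exon bases on opposite strands.

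Peg13, a noncoding RNA, lies in an intron of Trappc9, which encodes a subunit of a vesicle tethering complex. Peg13 was at 413, 423 and 332 CPM in trained and 392, 384 and 411 CPM in untrained replicates 1, 2 and 3, so trained libraries held both the highest and the lowest value. Trappc9 was at 87.0, 85.7 and 79.6 CPM and at 81.0, 78.8 and 92.1 CPM, with a log2 fold change of 0.0034 ± 0.078 (SE).

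Igf2r encodes the receptor that clears insulin-like growth factor 2 and sorts lysosomal enzymes, and Airn is the antisense RNA that starts in an intron of it and silences the paternal copy outside neurons. Igf2r was at 39.1, 40.3 and 37.9 CPM in trained and 39.3, 38.0 and 36.6 CPM in untrained replicates 1, 2 and 3. Airn was at 4.22, 4.69 and 4.03 CPM and at 4.37, 3.12 and 3.64 CPM. The groups overlapped in both, and the genes share no exon base.

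Mest, which encodes a hydrolase of mesodermal tissue, overlaps the end of Copg2, a coatomer subunit gene, over 912 exon bases on opposite strands. Mest was at 22.5, 22.4 and 18.2 CPM in trained and 24.1, 21.8 and 25.0 CPM in untrained replicates 1, 2 and 3. Copg2 was at 92.6, 97.3 and 81.2 CPM and at 92.6, 96.7 and 101 CPM. Both genes were lowest in trained replicate 3, and their groups overlapped.

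Peg10, a retrotransposon-derived gene, and Sgce, which encodes epsilon-sarcoglycan, start back to back and are both paternally expressed. Peg10 was at 57.8, 61.8 and 46.6 CPM in trained and 56.2, 56.3 and 54.4 CPM in untrained replicates 1, 2 and 3. Sgce was at 39.7, 43.0 and 41.9 CPM and at 35.3, 40.1 and 36.2 CPM, with a log2 fold change of 0.16 ± 0.08 (SE, edgeR adjusted p = 0.540). Only untrained replicate 2, at 40.1 CPM, reached into the trained range of Sgce. Their neighbours Ppp1r9a, a neuronal actin-binding scaffold, and Asb4, a subunit of ubiquitin ligases, were at log2 fold changes of -0.089 and -0.18.

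The remaining members tested had overlapping groups and log2 fold changes from -0.17 (Zim1) to 0.22 (Plagl1). Plagl1, a zinc finger transcription factor gene that acts on other imprinted genes, had single trained libraries from 27.2 to 36.4 CPM and untrained ones from 20.2 to 30.7 CPM. Peg3, a zinc finger gene of maternal behaviour and growth, and Zim1 beside it had log2 fold changes of -0.084 and -0.17. In the Kcnq1 domain, the silencing RNA Kcnq1ot1 was at 0.040, the tetraspanin gene Cd81 at 0.042 and Tssc4 at 0.062. Nap1l5, Impact and Inpp5f were at 0.042, 0.016 and -0.086.

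Levels between genes were compared per length, as RPKM (CPM per kilobase of exon) averaged over the 6 libraries. Nap1l5, a nucleosome assembly protein gene, was the highest at 297 RPKM, followed by Cd81 at 266, Snrpn at 148 and Nnat at 88.0 RPKM. Impact and Peg13 followed at 83.2 and 83.1 RPKM and Ndn at 60.4 RPKM. Meg3, at 36.5 RPKM, was the highest noncoding member of the maternal class. H19 was at 2.30 RPKM with single libraries from 0.623 to 5.70, and Igf2 at 0.212 RPKM with single libraries from 0.0541 to 0.429. Of 37 neighbours in this order 29 had overlapping ranges over the libraries. Of the 7 highest members 6 were paternally expressed, a class that holds 20 of all 38 members.

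**Figure D4:**
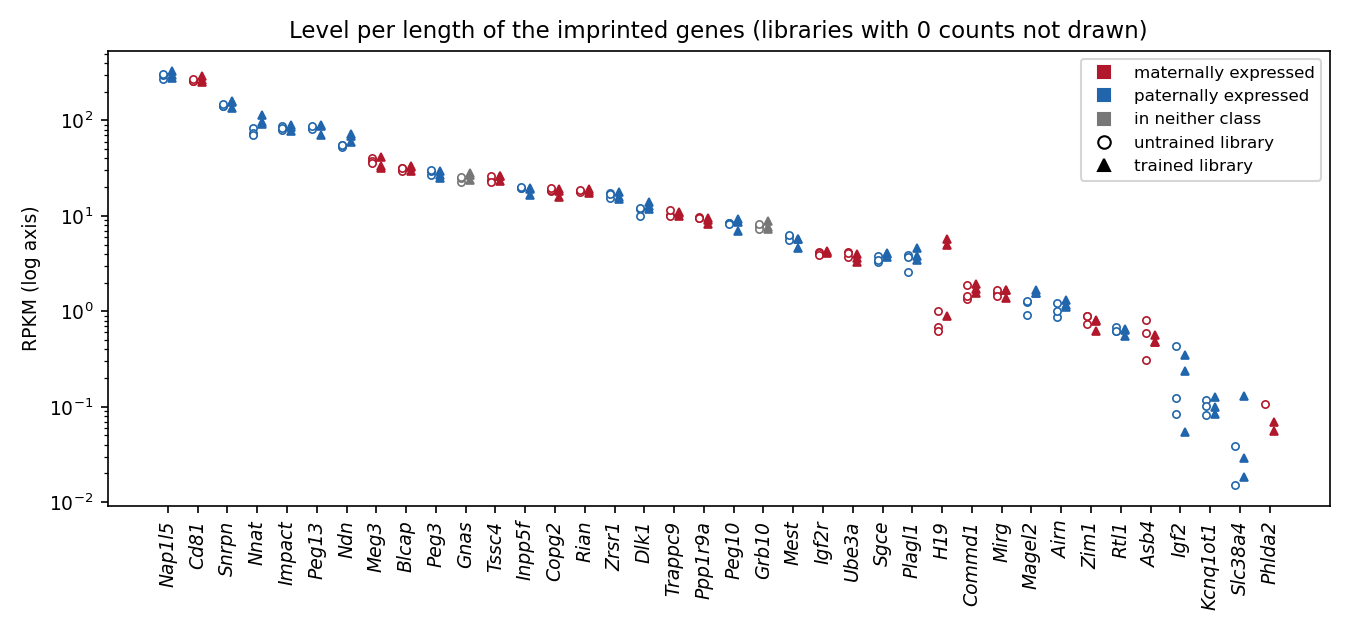
RPKM of the 38 imprinted genes in each library on a log axis, ordered by the mean over the 6 libraries, with open circles for untrained and triangles for trained libraries. The values run from 297 RPKM for Nap1l5 to 0.0386 RPKM for Phlda2. Libraries with 0 counts are not drawn, and 2 trained libraries of H19, at up to 5.70 RPKM, lie apart from its other 4.

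The machinery that keeps imprints showed no member past the test in edgeR. Of 20 regulators listed (DNA methyltransferases, TET enzymes, ZFP57, ZFP445, TRIM28, CTCF and others) 18 were tested, 0 passed over all genes, and 0 had an unadjusted p below 0.05. DESeq2 and limma-voom also called 0. Their median log2 fold change was -0.032. Smchd1, a chromatin protein that silences the inactive X and some imprinted clusters, was the 1 gene of the 18 with non-overlapping groups (5.56%, against 16.8% of all genes) and is named for that, after its values were seen. Its means were 31.4 ± 2.03 and 35.4 ± 0.195 CPM in trained and untrained cord (SD, n = 3 per group).

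In the insulin-like growth factor pathway, 17 of 20 genes listed were tested and 0 passed over all genes in edgeR. DESeq2 and limma-voom called 0 as well. In edgeR 2 were lower at an unadjusted p below 0.05 (11.8% of the 17, against 5.55% of all genes lower) and 0 higher. Without untrained replicate 1, 0 of the 17 had an unadjusted edgeR p below 0.05. Without trained replicate 1, 3 of the 17 did (Igfbp2, Igfbp6 and Pappa), where 8.22% of all genes did. With all 6 libraries the 2 were Insr, the insulin receptor gene, and Pappa, a protease that frees the growth factors from a binding protein. Insr was at 44.6, 48.9 and 50.1 CPM in trained and 56.3, 56.4 and 52.7 CPM in untrained replicates 1, 2 and 3 (log2 fold change -0.20 ± 0.08 SE, edgeR adjusted p = 0.396). Pappa was at 9.22, 7.84 and 6.52 CPM and at 12.3, 10.3 and 9.39 CPM (-0.44 ± 0.17, edgeR adjusted p = 0.421). Groups did not overlap in these 2 and in the receptor gene Igf1r, named after its values were seen, at 59.6 ± 3.40 and 64.4 ± 1.74 CPM (SD, n = 3 per group). These 3 are 17.6% of the 17, and 16.8% of all genes had such groups. In all 3 the trained libraries lay below, as in 8.69% of all genes. The list's median was -0.030.

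Of 40 further imprinted genes listed, 29 were tested and 0 passed over all genes in edgeR, in DESeq2 or in limma-voom. With no filter on low counts edgeR called 3 (Cdkn1c, Dhcr7 and Kcnk9). At an unadjusted p below 0.05, 3 were higher in trained cord (Cdkn1c, Zfp64 and Dhcr7) and 2 lower (Pon2 and Kcnk9), 17.2% of the 29 against 10.0% of all genes. Cdkn1c, a maternally expressed inhibitor of the cell cycle, was at 28.7, 20.9 and 28.1 CPM in trained and 17.8, 19.5 and 17.3 CPM in untrained replicates 1, 2 and 3 (log2 fold change 0.51 ± 0.13 SE, edgeR adjusted p = 0.218). Kcnk9, a maternally expressed potassium channel gene beside Peg13 and Trappc9, was at 158, 152 and 116 CPM and at 166, 191 and 202 CPM (-0.39 ± 0.12, edgeR adjusted p = 0.346). Groups did not overlap in 7 of the 29 (24.1%, against 16.8% of all genes), 3 with the trained libraries above and 4 below, with the 5 at an unadjusted p below 0.05 among them. Zfp64, a zinc finger gene, had means of 17.4 ± 1.53 and 13.4 ± 0.922 CPM, and Dhcr7, which makes the last enzyme of a cholesterol synthesis branch, 56.0 ± 7.19 and 44.7 ± 4.97 CPM in trained and untrained cord (SD, n = 3 per group). Pon2, a membrane lactonase gene, was at 61.8 ± 2.94 and 71.7 ± 1.52 CPM. The median of the 29 was -0.016.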

How the data were processed

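Total RNA was read as 150 bp pairs, in 3 libraries per group. The deposited values are unnormalized counts for each Ensembl gene, beside symbol, span and exon length. Bowtie 0.12.2, mm8 and mm9 appear in the submitters' processing notes without a stated role. For the counting tool, gene annotation and strand setting the sources used here say nothing. Spans in the table were compared with GENCODE M21 (GRCm38), where 53499 of 54409 shared IDs (98.3%) had the same chromosome, start and end, as did 37 of the 38 members.

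The counts of 16909 genes that passed filterByExpr entered a robust quasi-likelihood test by group in edgeR 4.0.16 (R 4.3.3, TMM), with Benjamini-Hochberg adjustment and a threshold of 0.05. An SE is the log2 fold change over the square root of F, and intervals use the fit's degrees of freedom. Promoter and microRNA sequences are RefSeq's (GRCm38.p6). The step was tested on simulated data. Also run were scaling by RLE or upper quartile, DESeq2 1.42.0, voom of limma 3.58.1, other filters, a replicate block and leaving out each library. Members, lists and the naming rule (H19, Igf2, members at an unadjusted p below 0.05 or with non-overlapping groups, and nested or neighbouring pairs) were chosen with earlier results of these data known.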

Additional observations from a re-analysis of the deposited data

How the results depend on the processing

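The number of members past an adjusted p of 0.05 was 0 in the reported edgeR fit and also with RLE or upper-quartile scaling, limma-voom, at least 1 CPM in 3 libraries and the replicate block. With 36 members tested in those fits and 38 in the next 2, it was 1 in DESeq2 and 2 with no filter on low counts. It was 0 to 2 when libraries were left out one at a time. The number at an unadjusted p below 0.05 ranged from 3 to 7 over the left-out libraries (7.24% to 14.6% of all genes, and 14.6% in the fit with 7, without trained replicate 3), and the number of members whose groups do not overlap from 5 to 10, with 2 libraries in one group (25.0% to 32.1% of all genes tested then do so). The median log2 fold change of the maternally expressed members ranged from -0.030 to 0.017 and that of the paternally expressed ones from 0.0069 to 0.12, the highest without trained replicate 3. Leaving out Cd81, Tssc4 and Phlda2, set apart because their imprinting may be limited to few tissues, moved neither median beyond the spread between libraries. In counts added after seeing the data, 0 regulators and 0 genes of the insulin-like growth factor pathway passed in each of these fits, and of the further imprinted genes 3 passed with no filter and 0 otherwise.

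With the replicate block 0 members passed and 3 had an unadjusted p below 0.05 (6.69% of all genes), and H19 kept its sign with an unadjusted edgeR p of 0.132. No sign was seen that the replicate numbers pair the libraries: deviations of same-numbered libraries correlated at -0.182, -0.0906 and -0.126 across genes. With 3 libraries per group a weak pairing could be missed.

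Fold changes were recomputed for 21 members, and not one by one for the other 15 tested. Of the 21, direction turned in 8. With limma-voom Mirg was at -0.016. With upper-quartile scaling Peg10 and Rian were at 0.020 and 0.020, and with no filter at 0.0057 and 0.0047. Over the left-out libraries the log2 fold changes ranged from -0.65 to 0.98 for Igf2, -0.040 to 0.11 for Mirg, -0.087 to 0.12 for Peg10, -0.088 to 0.097 for Peg13, -0.045 to 0.050 for Rian, -0.11 to 0.0069 for Rtl1, -0.040 to 0.074 for Trappc9 and -0.11 to 0.040 for Zrsr1. H19 kept its sign, from 1.88 to 2.77, as did Nnat, from 0.33 to 0.49, Ndn, from 0.23 to 0.38, and Magel2, from 0.33 to 0.57. The cause was not tested. Depth limits Igf2, at 8 to 45 counts per library, and leaves Phlda2 and Slc38a4 unmeasured.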
